A study of Mus musculus with 2 samples.

Results

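The 250 long piRNA clusters were those of at least 17881 bp among the 512 piRNA clusters whose small RNA levels were measured in LZ spermatocytes of P11 and P16 mice. LZ stands for leptotene and zygotene, the opening stages of meiotic prophase, which a spermatocyte passes before it reaches pachytene. Cluster length was taken as the end minus the start plus 1, and the choice used no measured level. By the same rule 256 shorter clusters were kept apart, and 6 further clusters above the limit (cluster125, cluster210, cluster231, cluster259, cluster419 and cluster496) were set aside. Both ages were wild type C57BL/6J mice, at 11 and 16 days after birth, and cells sorted by Hoechst staining from several animals were pooled into 1 small RNA library per age. No library was replicated, so that no difference given here has a replicate check and no p-value was computed. Age, library and sort cannot be told apart, nor can fewer cells that use a cluster and less piRNA from it per cell. The values were RPKM, the uniquely mapped reads divided by the cluster length and by the mapped reads of the library, rounded by the authors to 2 decimals. The files hold levels of piRNA clusters only, so that the labelled cell type was not checked against marker genes, and they do not say which strand a read came from.

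piRNAs are small RNAs that guide PIWI proteins, which silence transposons and other transcripts in germ cells. Germ cells make the bulk of them by cutting up transcripts of a limited set of loci, which are known as piRNA clusters. Fetal prospermatogonia, spermatogonia and meiotic cells draw on different clusters, and those that become dominant at pachytene are mostly intergenic and are transcribed under the transcription factor MYBL1 (A-MYB). The study had sorted its clusters into late clusters, early clusters, PSG (prospermatogonial) clusters and clusters of low expression by their levels over germ cell stages. The 250 long clusters comprised 44 late, 49 early, 56 PSG and 101 low expression clusters, against 66, 48, 92 and 50 among the shorter ones. The study chose these categories from levels in fetal testes and in germ cells sorted at a later age than here, LZ cells among them. They are therefore not independent evidence of a direction in LZ cells.

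The late clusters with the most reads at P16 were examined first for the promoter sequences of annotated non-coding genes that start in them. Whether piRNA precursors start at these sites was not tested. RefSeq (GRCm38.p6, the same assembly as mm10) gave 7 promoters of non-coding genes at 3 of the 5 long late clusters with the most P16 reads, namely cluster420, cluster389 and cluster370. A promoter here is the window of 300 bases from 250 bases before to 50 after the annotated start. MYB proteins bind a core written TAACNG or CAACNG, and both were searched on both strands. No stretch can match both on the same strand, although matches on opposite strands may overlap, and capitals below mark a match on either strand. Of the 7 promoters, 5 held a match. The sequences shown are Gm10619 (chr7:73816454-73816753, minus strand), Gm21269 (chr7:73825674-73825973, plus strand), Gm46976 (chr6:127850418-127850717, plus strand), Gm21221 (chr5:149811702-149812001, minus strand) and, as a promoter of the same clusters without a match, Gm38902 (chr6:127818542-127818841, minus strand).
Gm10619: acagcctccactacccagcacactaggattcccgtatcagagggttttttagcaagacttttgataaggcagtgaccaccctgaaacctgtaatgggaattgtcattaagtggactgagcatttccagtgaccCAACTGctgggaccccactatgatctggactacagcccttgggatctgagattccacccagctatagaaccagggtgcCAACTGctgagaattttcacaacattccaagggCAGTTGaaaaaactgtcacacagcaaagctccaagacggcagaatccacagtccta
Gm21269: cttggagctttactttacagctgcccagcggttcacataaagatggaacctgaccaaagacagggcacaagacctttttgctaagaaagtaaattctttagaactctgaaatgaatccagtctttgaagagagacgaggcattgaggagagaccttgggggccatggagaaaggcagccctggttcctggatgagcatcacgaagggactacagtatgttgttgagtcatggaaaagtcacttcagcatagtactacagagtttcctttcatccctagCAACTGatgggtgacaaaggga
Gm46976: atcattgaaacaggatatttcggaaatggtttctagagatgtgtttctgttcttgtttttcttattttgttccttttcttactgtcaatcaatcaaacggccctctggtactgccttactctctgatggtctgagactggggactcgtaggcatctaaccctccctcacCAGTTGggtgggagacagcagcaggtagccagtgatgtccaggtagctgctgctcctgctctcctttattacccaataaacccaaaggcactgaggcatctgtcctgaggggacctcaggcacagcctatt
Gm21221: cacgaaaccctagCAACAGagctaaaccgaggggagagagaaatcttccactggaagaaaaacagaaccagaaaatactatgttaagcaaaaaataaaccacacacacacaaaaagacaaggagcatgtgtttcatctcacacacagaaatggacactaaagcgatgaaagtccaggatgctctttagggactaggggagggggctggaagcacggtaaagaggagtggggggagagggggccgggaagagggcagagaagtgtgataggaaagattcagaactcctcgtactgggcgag
Gm38902: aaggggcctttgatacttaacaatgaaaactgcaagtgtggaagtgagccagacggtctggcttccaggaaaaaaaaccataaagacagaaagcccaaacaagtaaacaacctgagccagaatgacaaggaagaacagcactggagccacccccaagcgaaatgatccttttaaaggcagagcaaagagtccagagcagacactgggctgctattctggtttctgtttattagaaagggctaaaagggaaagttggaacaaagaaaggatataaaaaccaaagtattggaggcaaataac
Gm10619 and Gm21269 lie in cluster420, Gm46976 and Gm38902 in cluster389, and Gm21221 in cluster370. Gm10619 held 3 matches and each of the other matched promoters shown held 1. In the GENCODE annotation Gm10619 and Gm21269 start head to head, at positions 73816503 and 73816546 of chromosome 7, so that they are transcribed away from each other through cluster420, whereas the RefSeq start of Gm21269 used for the window lies further downstream. A match is a description of these letters and not a measured binding site.

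Over all long late clusters, 36 of the 50 promoters in them or within 1 kb of them held a match (72.0%), against 49.7% of the 32851 RefSeq promoters of the same length. The share was 45.5% for long early clusters, 41.4% for long PSG clusters and 55.6% for long clusters of low expression. Shorter late clusters had a share of 78.3% (18 of 23), so that a high share was not particular to the long ones. A promoter was found for 26 of the 44 long late clusters, and in 22 of these at least 1 promoter held a match. Several of the promoters belong to alternative starts of the same gene, so that they are not independent.

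Together the long clusters took 8.09% of mapped reads at P11 (95% Wilson interval 8.05 to 8.12%) and 30.9% at P16 (30.8 to 30.9%). The intervals reflect counting error alone. The shares correspond to 182612 reads at P11 and 1248913 reads at P16, out of 2258299 and 4043086 mapped reads as estimated from the spacing of low RPKM values. The late clusters carried the difference, with 0.370% of mapped reads at P11 and 27.9% at P16. The early clusters took 6.30% at P11 and 2.47% at P16, the PSG clusters 1.06% and 0.380%, and the clusters of low expression 0.354% and 0.150%. Among the reads of the long clusters, those from early clusters were 77.9% at P11 and 7.99% at P16, and those from late clusters 4.58% at P11 and 90.3% at P16. The shorter clusters took 10.7% of mapped reads at P11 and 8.26% at P16. Their late clusters took 0.956 and 4.77% and their early clusters 9.53 and 3.36%, the same directions as in the long clusters, but early clusters made up more of their reads. The 6 clusters set aside took 0.199% at P11 and 26.9% at P16, against 30.9% for the 250 long clusters.

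**Figure D1:**
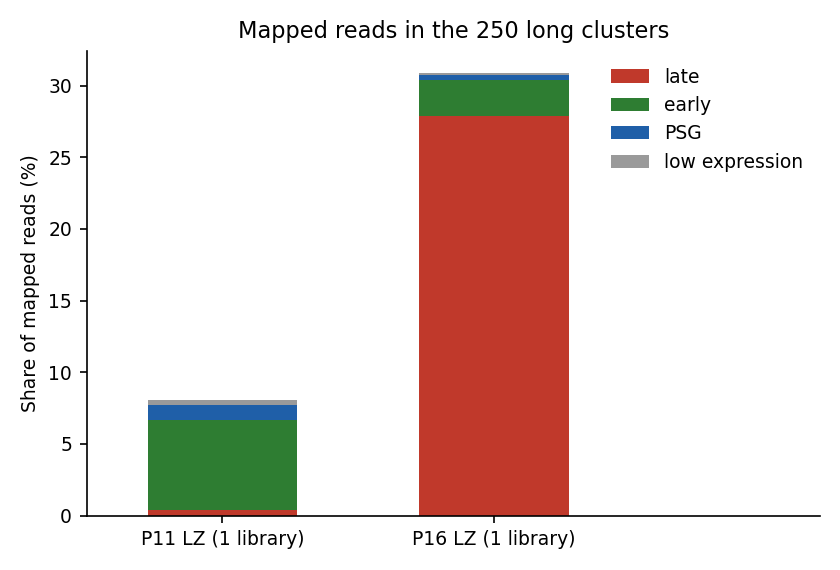
Share of mapped reads (%, linear axis from 0) in the 250 long clusters, stacked by category, for the P11 and the P16 library (1 library each, no error bars; Wilson intervals are narrower than the bar edges). The stack reaches 8.09% at P11, mostly early clusters (6.30%), and 30.9% at P16, mostly late clusters (27.9%).

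On the scale of log2(RPKM + 0.1), the median ratio of P16 to P11 was 7.40 over the 44 long late clusters (quartiles 4.02 and 9.02, range -0.56 to 9.92). It was -1.26 over the early, -1.11 over the PSG and -0.35 over the low expression clusters. Over all 250 long clusters it was -0.66, and over all 512 clusters -0.52. The pseudocount of 0.1 understates the ratios of clusters with low values. The RPKM of a library are relative to all its mapped reads, so that more reads from late clusters lower the values of all other clusters. Rescaled to mapped reads outside the late clusters of the series, the median of all 512 clusters moved by 0.66, to 0.14. The medians were then 8.68 for the late, -0.04 for the early, -0.02 for the PSG and 0.0042 for the low expression clusters, so that the last of these changed sign.

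At least 2-fold higher at P16 were 43 of the 250 long clusters (17.2%), near the 20.7% of all 512 clusters. At least 2-fold lower were 92 (36.8%), near the background of 35.2%. Relative to reads outside the late clusters, 55 long clusters were higher (22.0%, against 28.9% of all clusters) and 5 lower (2.0%, against 4.30%). Of the calls, 31.9% were higher on RPKM, 91.7% relative to reads outside the late clusters and 87.9% after rescaling to the median ratio. By category, 40 of the 44 late clusters were at least 2-fold higher and 0 lower (90.9%, against 82.8% of all 116 late clusters of the series). At least 2-fold lower were 36 of the 49 early clusters (73.5%, against 70.1% of all early clusters), 33 of the 56 PSG clusters (58.9%, against 52.0%) and 23 of the 101 clusters of low expression (22.8%, against 22.5%). Of these 3 categories, 3 long clusters of low expression were at least 2-fold higher (2.97%, against 3.97% of all clusters of low expression). Relative to reads outside the late clusters, the lower calls fell away to 0 early, 1 PSG and 4 low expression clusters, and 3 early, 0 PSG and 9 low expression clusters were higher. Over all clusters of the series that scale gave 0 of 97 early, 13 of 148 PSG and 9 of 151 low expression clusters lower, and 9, 11 and 18 higher. On RPKM + 0.1, 30 of the 44 long late clusters had ratios of at least 64-fold and 16 of at least 256-fold. Over all 116 late clusters the numbers were 57 and 32, and no long cluster of another category reached 64-fold.

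**Figure D2:**
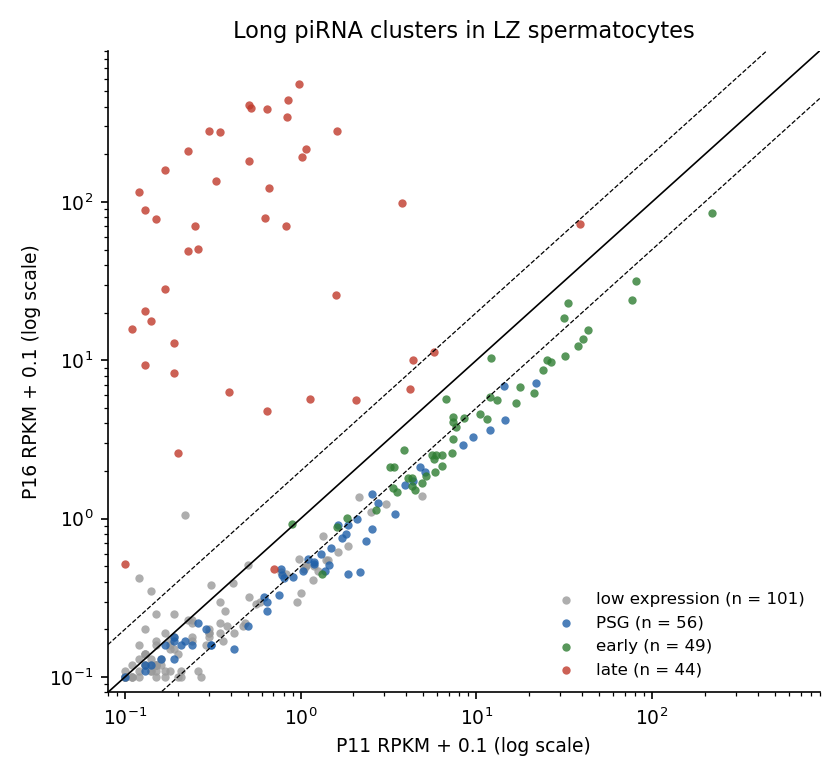
P11 RPKM + 0.1 against P16 RPKM + 0.1 (both axes log scale) for the 250 long clusters, 1 point per cluster, coloured by category. The solid line marks equal values and the dashed lines a 2-fold difference: 40 of 44 late clusters lie above the upper dashed line, and the early and PSG clusters lie along the lower one (median log2 ratio -1.26 and -1.11 on RPKM, -0.04 and -0.02 relative to reads outside the late clusters).

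The long late clusters were low at P11, at a median level of 0.41 RPKM, and reached 71.2 RPKM at P16 (quartiles 10.9 and 195). At P11, 1 of them reached 10 RPKM, and at P16 33 did. The shorter late clusters had a higher P11 median, 2.495 RPKM, and a lower P16 median, 45.5 RPKM, and their median log2 ratio was 4.14, against 5.70 for all 116 late clusters. With 1 library per age this difference between long and shorter late clusters has no replicate check, and in shorter clusters a single read is worth more RPKM.

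Among the 44 long late clusters, the highest P16 levels were those of cluster160, cluster343, cluster370, cluster420 and cluster108. The 6 clusters set aside are also late, and their P16 levels ranged from 227.96 to 1575.84 RPKM. Cluster160 (chr14:24082162-24132982) had 0.88 RPKM at P11 and 554.79 RPKM at P16, 630-fold higher (95% counting interval 519 to 774). Its only annotated gene is Mir7210, a miRNA hairpin. Reads matching miRNAs were discarded per the paper's methods, and whether any remained was not tested. The mature miRNAs of Mir7210 (RefSeq, plus strand) are given here with the seed, bases 2 to 8, in capitals, to show which miRNA sequences lie in this cluster.
mmu-miR-7210-5p: uAACAUUGuagacaggcacaaag
mmu-miR-7210-3p: uUAUAUGUaaguaacaauguggcu
Both begin with U, as most piRNAs do. Cluster343 (chr5:113320060-113375795) had 0.75 and 442.41 RPKM, 590-fold higher at P16 (484 to 733), and its only protein-coding gene is Aym1, which covers 0.947% of it. Cluster370 (chr5:149782317-149830147), with Gm21221 over 20.4% of its length and no coding gene, had 0.41 and 407.01 RPKM, 993-fold higher (744 to 1375). Coding exons made up under 1% of each of those 3 clusters.

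Cluster420 (chr7:73771689-73847970) held more P16 reads than any other long cluster, 120858 or 2.99% of mapped reads, against 72 reads at P11. Its RPKM were 0.42 and 391.87, 933-fold higher at P16 (744 to 1198). The divergent non-coding genes whose promoters are printed above cover most of it, Gm10619 46.0% and Gm21269 29.3%, and the end of Fam174b a further 6.86%. Cluster389 (chr6:127760474-127855745), which overlaps the start of Prmt8, a gene for an arginine methyltransferase of the brain, had 0.20 and 278.37 RPKM, 1392-fold higher (1034 to 1925), and took 2.65% of mapped reads at P16. Cluster108 (chr11:103424155-103449779) overlaps no annotated gene and had 0.54 and 383.66 RPKM, 710-fold higher (504 to 1054). None of these clusters had more than 101 reads at P11, and each had at least 39749 at P16.

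Of the late clusters that averaged 10 RPKM or more over both libraries, the largest log2 ratios of RPKM + 0.1 belonged to cluster46, cluster416, cluster389 and cluster489. Cluster46 (chr10:66672214-66698101) rested on 1 read at P11 and 12144 reads at P16, a ratio of 5801 with a counting interval from 1217 to 267941 and a log2 ratio of 9.92 with the pseudocount. Cluster416 (chr7:69878822-69954054) had 12 and 48570 reads, 2281-fold more per mapped read (1294 to 4376), at 0.07 and 159.68 RPKM. Cluster489 (chr9:54205727-54249599) lies wholly inside Cyp19a1, the gene for aromatase, which makes estrogen from androgen, but overlaps none of its exons. It had 0.13 and 208.57 RPKM, 1604-fold higher at P16 (929 to 2986). Without the pseudocount the order differs, since cluster312, with 0.03 and 88.98 RPKM and 4 reads at P11, had a ratio of 2966 (1066 to 10020). The intervals of these clusters overlap, so that counting error alone leaves their order unsettled.

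Cluster489 also belongs to the closest pair of long late clusters, since cluster490 (chr9:54250064-54299493), over the starts of Cyp19a1 and Gldn, begins 464 bp beyond its end. The antisense non-coding gene Gldnos covers 62.5% of cluster490. Cluster490 had 1 read at P11 and 3132 reads at P16, and its P16 level, 15.67 RPKM, was well below that of its neighbour. A gap of 121 bp separates cluster490 from cluster491, a cluster of low expression with 0.03 and 0.10 RPKM. With the pseudocount the log2 ratios of these 3 adjoining clusters were 9.83, 7.16 and 0.62. Without it cluster489 and cluster490 had nearly the same ratio, 1604 and 1567, the latter with an interval from 314 to 69120. The next closest late pair, cluster161 and cluster162 on chromosome 14, 40189 bp apart, had P16 levels of 9.28 and 12.81 RPKM and log2 ratios of 6.17 and 6.09. Upstream of them on chromosome 14, cluster160 reached 554.79 RPKM.

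The 44 late clusters were not uniform at P11. Cluster390 (chr6:128154103-128200463), which carries the long non-coding genes 9330102E08Rik and Gm10010 and overlaps no coding exon, stood far above the rest with 38.82 RPKM (4064 reads). At P16 it had 72.17 RPKM, 1.86-fold higher (1.80 to 1.93), the smallest ratio of any late cluster averaging 10 RPKM or more. This 1 cluster supplied 0.180 of the 0.370% of mapped reads in long late clusters at P11. Its neighbour cluster391 had the next highest P11 level, 5.63 RPKM, and 11.19 RPKM at P16. The antisense non-coding gene Gm10069 covers 77.2% of cluster391, Fkbp4 13.1% and part of Pzp 11.4%. Cluster179, of which 96.3% lies in Ago2, the gene for the Argonaute slicer that carries miRNAs and siRNAs, had 4.26 and 9.87 RPKM, 2.32-fold higher (2.15 to 2.50).

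Some clusters outside the naming rule were picked after their values were seen because they overlap germline genes. Cluster187, which holds the start of Mov10l1, a helicase needed to make piRNAs, had 4.07 and 6.46 RPKM. Cluster509, most of which lies in Topaz1, a gene of male meiosis, had 0.29 and 6.23 RPKM. Cluster182, over Cbx6, Cbx7 and Apobec3, had 1.97 and 5.52 RPKM. None of these 3 reached the late median of 71.2 RPKM at P16. Cluster488, within Arhgap20, was the only late cluster with a lower value at P16, 0.61 and 0.38 RPKM, and it turned to a higher value relative to reads outside the late clusters. Cluster286 was listed at 0 at P11 and had 0.42 RPKM (57 reads) at P16.

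Other late clusters of low ratio that averaged 10 RPKM or more were intermediate. Cluster380, which lies almost wholly in the antisense gene Gm19265, had 1.50 and 25.69 RPKM, 17.1-fold higher (14.2 to 20.8). Cluster310, with the start of the zinc finger gene Zfp37, had 3.67 and 98.97 RPKM, 27.0-fold higher (23.0 to 31.9). Cluster381, with the linker histone gene H1fx, had 0.73 and 70.21 RPKM, 96.2-fold higher (77.3 to 121).

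**Figure D3:**
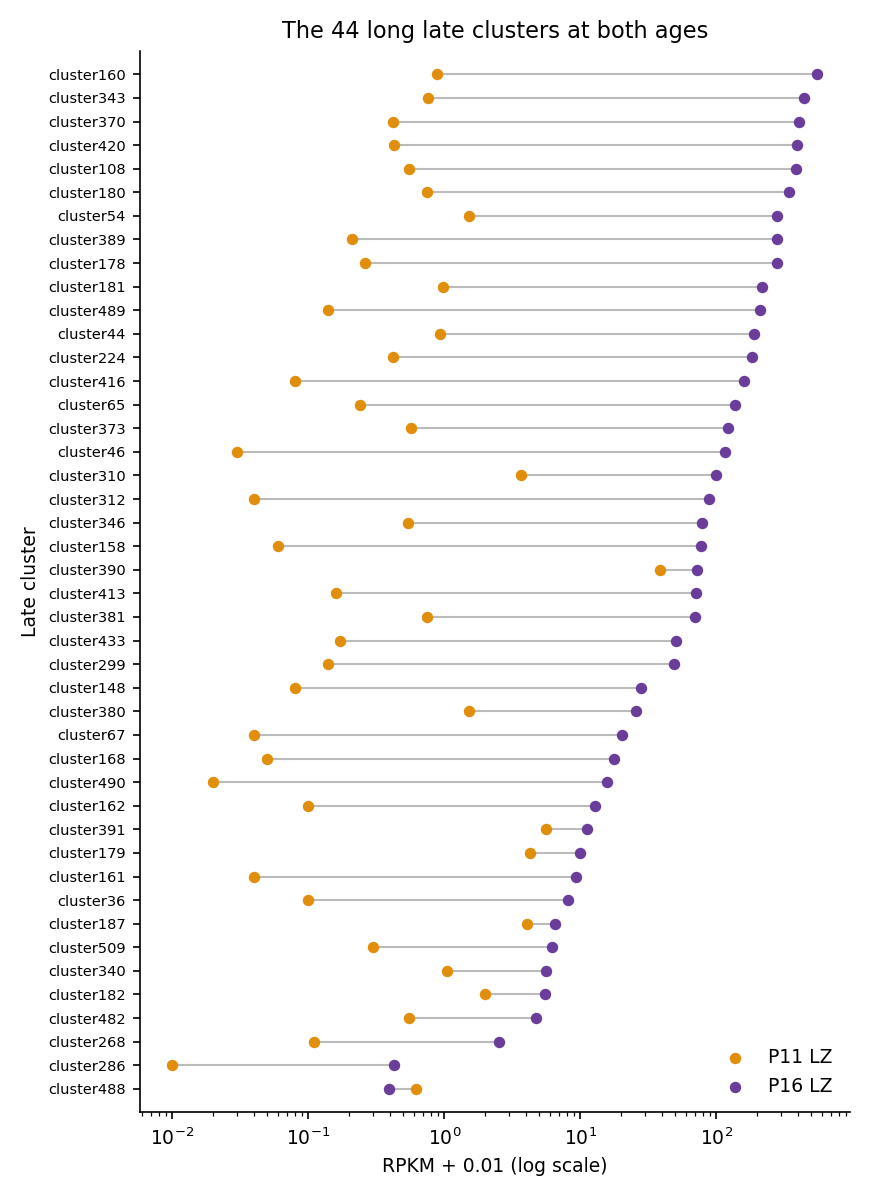
RPKM + 0.01 (log scale) of each of the 44 long late clusters at P11 (orange) and P16 (purple), 1 library each, ordered by the P16 value, with a grey line joining the values of a cluster. P16 values exceed P11 values in 43 clusters, P11 values lie mostly under 1 RPKM, and cluster390 at 38.82 RPKM stands apart at P11.

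An RPKM of 1 or more at P11 was measured in 9 late clusters. Their median levels were 3.67 and 11.2 RPKM at P11 and P16, and they took 0.318 and 2.15% of mapped reads. The other 35 had medians of 0.20 and 79.0 RPKM and took 0.0525 and 25.7%. Since these groups were formed by the P11 value, their ratios are not compared. The 20 late clusters that overlap a protein-coding exon had a median log2 ratio of 6.69 and a P11 median of 0.745 RPKM, and the 24 without such an exon 7.87 and 0.14 RPKM. Their P16 medians were closer, 59.5 and 74.8 RPKM. Both sets supplied a similar part of the mapped reads at P16, 14.1 and 13.7%.

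Position relative to genes differed between the categories of long clusters. A protein-coding exon was overlapped by 20 of 44 late clusters, 47 of 49 early clusters, 40 of 56 PSG clusters and 69 of 101 clusters of low expression. The median share of a cluster covered by coding genes was 0% for late, 86.0% for early, 42.6% for PSG and 57.2% for low expression clusters. A long non-coding gene was overlapped by 28 of 44 late, 29 of 49 early, 29 of 56 PSG and 37 of 101 low expression clusters. Among the shorter clusters a coding exon was overlapped by 119 of 256, against 176 of 250 long ones, and by the rule these sets differ in length.

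The median level of the long early clusters was 7.23 at P11 and 3.67 RPKM at P16, and 48 of the 49 were lower at P16. None was at least 2-fold lower relative to reads outside the late clusters, where 3 were at least 2-fold higher, so that the direction of the early clusters as a group rests on the scaling. The highest was cluster29 on chromosome 1, which had 220.53 RPKM at P11 and 85.60 at P16 and overlaps Zbtb37 and Gas5, a non-coding host gene of snoRNAs. It alone took 1.51% of mapped reads at P11 and 0.587% at P16, and its log2 ratio of -1.36 became -0.08 relative to reads outside the late clusters.

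Cluster183, over Tef, a PAR bZIP transcription factor gene, had 81.34 and 31.45 RPKM. Cluster394 (chr7:6572571-6658897), which overlaps 7150 bp of Zim2, in an imprinted domain, and no coding exon, had 77.19 and 23.80 RPKM, a log2 ratio of -1.69. Cluster193, over Cbx5 (the heterochromatin protein HP1 alpha) and part of Hnrnpa1, had 43.04 and 15.41 RPKM. The P11 levels of these 3 clusters were 2.59, 3.24 and 2.79 times their P16 levels. Cluster479, over Rpl13, Cpne7 and Sult5a1, had 40.20 and 13.49 RPKM. Cluster188, in the synaptic scaffold gene Shank3, had the most negative early ratio, with 21.29 and 6.11 RPKM (log2 ratio -1.78, -0.52 relative to reads outside the late clusters).

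At the other end, cluster104, over Cacnb1, Stac2 and Rpl19, had 11.95 and 10.19 RPKM, a log2 ratio of -0.23 (1.05 relative to reads outside the late clusters). Cluster348, over Unc119b, had 33.15 and 23.01 RPKM, a log2 ratio of -0.52 (0.75 on the other scale). The range over early clusters, from -1.78 to 0.06, was far narrower than that over late clusters. Only cluster45, at 0.79 and 0.83 RPKM, was higher at P16. The next 3 early clusters were picked for their genes after their values were seen. Cluster374, over the methylcytosine dioxygenase gene Tet3, had 17.54 and 6.65 RPKM. Cluster119, over the DNA methyltransferase gene Dnmt3a, had 8.39 and 4.20 RPKM. Cluster42, over Nodal, Pald1 and Eif4ebp2, had 31.36 and 18.39 RPKM.

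The long PSG clusters, named for their level in fetal prospermatogonia, had median levels of 1.045 at P11 and 0.37 RPKM at P16. Of the 56, 55 were lower at P16, but 1 was at least 2-fold lower relative to reads outside the late clusters, so that the direction of this group also rests on the scaling. The highest were cluster324, over Ncmap, Rcan3 and Nipal3, with 21.69 and 7.10 RPKM, and cluster415, over the zinc finger gene Klf13, with 14.45 and 4.08 RPKM. Cluster280, over the ubiquitin ligase gene Rnf114 and Spata2, had 14.21 and 6.74 RPKM, a log2 ratio of -1.06 that became 0.21 relative to reads outside the late clusters. The least negative ratios among those averaging 1 RPKM or more were those of cluster58, over Ptbp1 and Palm (2.45 and 1.34 RPKM), and cluster5, at the edge of Ptma (1.54 and 0.81 RPKM). The PSG medians lay below the early medians at both ages.

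The 101 long clusters of low expression had medians of 0.10 and 0.07 RPKM. The highest at P11 were cluster285, over Gyg, with 4.81 and 1.29 RPKM, and cluster27, over Fam20b, with 2.98 and 1.13 RPKM. Cluster382, in the monoglyceride lipase gene Mgll, had 2.06 and 1.27 RPKM, among the highest of its category at P16. The 3 that were at least 2-fold higher at P16, cluster141, cluster144 and cluster497, went from 4, 25 and 1 reads at P11 to 50, 365 and 35 reads at P16. Of the 101, 18 had fewer than 3 reads at P11 and 24 at P16.

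Of all 250 long clusters, 10 were listed at 0 at P11 and 17 at P16. For a long cluster of median length, 48.1 kb, the P11 library needs 0.0276 RPKM and the P16 library 0.0154 RPKM to reach 3 reads. Differences below these levels were not detectable at this depth. At least 10 RPKM were reached by 25 long clusters at P11 and 43 at P16, and at least 100 RPKM by 1 and 17.

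Reads were concentrated in few long clusters at both ages, but not in the same ones. At P11, 9 clusters held 50% of the long-cluster reads and 50 held 90%. At P16, 7 clusters held 50% and 27 held 90%. The 10 with the most reads at P11, 7 early, 2 PSG and 1 late, held 54.0%, and the 10 with the most reads at P16, all late, held 66.0%. These lists of 10 shared 0 clusters. The top cluster held 18.7% at P11 (cluster29) and 9.68% at P16 (cluster420).

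**Figure D4:**
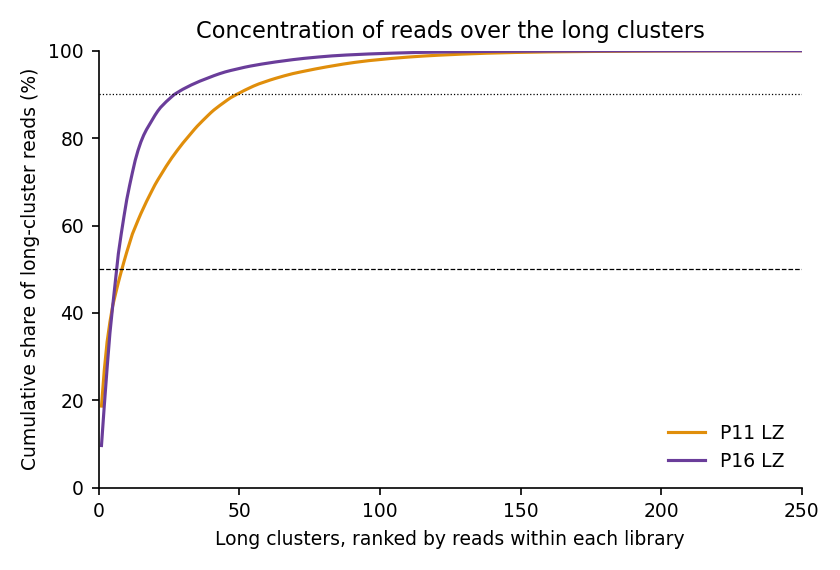
Cumulative share (%, linear axis) of the reads of the 250 long clusters, with the clusters ranked by reads separately within the P11 (orange) and the P16 (purple) library; the dashed line marks 50% and the dotted line 90%. The P16 curve crosses 50% at 7 clusters and 90% at 27, and the P11 curve at 9 and 50.

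The long clusters spanned 17968 to 599131 bp, 15921 kb in all. Late clusters of 17.881 to 25 kb (9 clusters) had a median log2 ratio of 6.99, those of 25 to 50 kb (20) 7.27 and those of 50 to 100 kb (14) 8.85. The 1 late cluster of 100 kb or more, cluster182, had 1.44. Late clusters of 50 to 100 kb took 17.996% of mapped reads at P16, those of 25 to 50 kb 8.90% and the shortest class 0.917%. Among all categories the 43 long clusters of 100 kb or more took 2.55% at P11 and 1.03% at P16, and 24 of them were at least 2-fold lower (55.8%, against 36.8% of the long clusters), but 0 relative to reads outside the late clusters. The longest clusters differed widely in level. Cluster200 (599131 bp), most of it in Lpp, had 1.30 and 0.45 RPKM. Cluster341 (236974 bp), over the start of Wdfy3, had 0.04 and 0.02 RPKM. Cluster506 (219706 bp), over Glb1, Trim71 and Cnot10, had 16.62 and 5.28 RPKM. The long clusters as a whole had medians of 0.535 and 0.425 RPKM. Just inside the length limit lay cluster292 and cluster359, both of 17968 bp, with 0.81 and 0.33 RPKM and with 1.33 and 0.45 RPKM. Just outside it lay cluster232 (17793 bp), listed at 0 and with 0.13 RPKM, and cluster275 (17659 bp), with 54.51 and 19.06 RPKM.

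**Figure D5:**
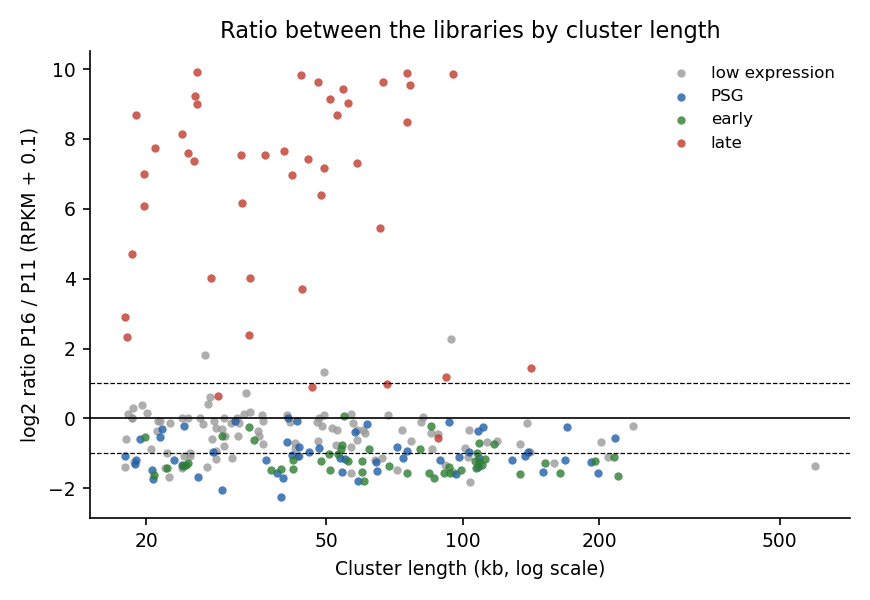
log2 ratio of P16 to P11 on RPKM + 0.1 (linear axis) against cluster length (kb, log scale) for the 250 long clusters by category, with a solid line at 0 and dashed lines at 2-fold. Late clusters range from -0.56 to 9.92 and all but 1 are shorter than 100 kb, while the other categories stay between -2.24 and 2.27 at every length. The 6 late clusters set aside, of up to 107098 bp, are not shown.

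Long clusters lay on 20 chromosomes and late ones on 13. Chromosome 7 held the most long clusters, 27. At P16, long late clusters took 4.75% of mapped reads from chromosome 5, 4.72% from chromosome 15 and 4.48% from chromosome 7. The chromosome values given here are for the long clusters only. They leave out the 6 late clusters set aside, with 26.9% of mapped reads at P16, and the shorter late clusters, with 4.77%. The order of the chromosomes over all late clusters was not tested. Chromosome 14 had 5 late clusters among 12 long ones and 0 early or PSG clusters, and went from 0.00967% of mapped reads at P11 to 3.11% at P16. Chromosome 1, with 16 long clusters and none of them late, went the other way, from 1.59 to 0.615%, most of it from cluster29.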

How the data were processed

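Each age gave 1 small RNA library of sorted LZ spermatocytes. The authors clipped the adapters, discarded reads matching miRNAs, rRNAs, tRNAs and other cellular RNAs, counted the uniquely mapped reads of each cluster on mm10 and deposited RPKM values. The submitters' processing notes name Trim Galore and HISAT2, whereas the paper's methods name Bowtie2; versions and the counting tool are not given in the sources used here. RPKM are not counts. The depth was recovered from the steps that 1 read makes in low values (2258254 to 2258345 mapped reads at P11, 4043006 to 4043167 at P16), from clusters rounded by less than 0.3 reads and holding up to 500 reads; of 209 values at P11 and 116 at P16, 100% were whole reads within 1.05 times the rounding error, against 28.3% and 37.1% by chance. For a cluster of median length the rounding amounts to 0.543 reads at P11 and 0.972 at P16, and for the longest to 6.77 and 12.1, so that reads of long clusters are estimates.

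Shares of mapped reads were RPKM times kilobases over 10000, with 95% Wilson intervals; folds have exact binomial (Clopper-Pearson) intervals. Libraries without molecular identifiers count reads, not molecules, so that the intervals, like the floor of 3 reads, reflect counting error alone. Ratios were log2 of RPKM + 0.1, and a call was a difference of at least 2-fold. Alternatives covered the pseudocount, low clusters, the length limit, the scaling, the clusters set aside and the summing of reads. Categories came from the study's supplementary table. Overlapping genes were taken from GENCODE M21, promoters and miRNAs with RefSeq genes of GRCm38.p6. Named were, by a rule, the late clusters highest in P16 RPKM (5), the most P16 reads (5), the largest and smallest log2 ratio at a mean of at least 10 RPKM (4 each) and the highest P11 RPKM (3); early clusters with the highest P11 RPKM (5) and the extreme ratios (2 each); PSG clusters with the highest P11 RPKM (3) and, averaging 1 RPKM or more, the largest ratios (2); low expression clusters highest at P11 and at P16 (2 each); and the longest clusters, those at the length limit and the closest late pairs. The clusters, the use of the study's categories and the lists were chosen with earlier results of these data known. Python 3.11.15, numpy 2.4.6, pandas 2.3.3, scipy 1.17.1 and matplotlib 3.10.9 were used, and the procedure was tested on simulated data. Other stages were not analysed here.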

Additional observations from a re-analysis of the deposited data

How the results depend on the processing

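No paired analysis was possible because a single library represents each age, and for the same reason no library could be left out. Over 68 alternative values of 10 summary results, 32 stayed within the error or count limits, 35 moved and 1 reversed. The median log2 ratio of the late clusters, 7.40, was 5.47 with a pseudocount of 1, 8.68 over the 15 of at least 50 kb, 8.47 after rescaling to the median ratio, 6.24 on summed reads and 8.68 relative to reads outside the late clusters. That of the early clusters, -1.26, was -1.03 with a pseudocount of 1, -0.24 rescaled to the median ratio and -0.038 relative to reads outside the late clusters. That of the PSG clusters, -1.11, was -0.49 and -1.28 with pseudocounts of 1 and 0.01, -1.36 over the 22 averaging 1 RPKM or more, -0.21 rescaled, -0.019 relative to reads outside the late clusters and -1.48 on summed reads. That of the low expression clusters, -0.35, was -0.055 and -1.0 with pseudocounts of 1 and 0.01, -1.36 over the 6 averaging 1 RPKM or more, -0.66 at 50 kb or more, 0 rescaled, 0.0042 (reversed) relative to reads outside the late clusters and -1.23 on summed reads. The 43 clusters at least 2-fold higher became 14 of the 118 at 50 kb or more, where 13 of 15 late clusters were higher. The 92 lower ones became 38 with a pseudocount of 1, 60 of 117 at a mean of at least 1 RPKM, 55 of 118 at 50 kb or more, 7 rescaled and 5 relative to reads outside the late clusters. The 36 lower early clusters became 0 under both rescalings. The scaling to reads outside the late clusters by construction removes the shift that their reads give to all others, and for the median ratio the cause was not tested. The share of mapped reads in long clusters at P11, 8.09%, was 8.29% with the 6 clusters set aside, 6.88% at 50 kb or more and 42.6% of the reads in all clusters. At P16, 30.9%, it was 57.8%, 20.7% and 46.8% under the same settings and 27.9% without cluster420. Of 156 values of the 39 named clusters under alternatives added after seeing the data, 58 lay within counting error and 97 moved. Of the named clusters that differed at least 2-fold, 1 reversed, cluster280, from -1.06 to 0.21 relative to reads outside the late clusters. Below 2-fold, cluster5, cluster58, cluster104, cluster341, cluster348 and cluster382 went from negative to positive under both rescalings. The depth limits clusters of few reads: 25 long clusters at P11 and 26 at P16 had fewer than 3 reads.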

Other observations

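Genes of small RNAs that are not piRNAs lie in some long clusters, although reads matching them were discarded before counting per the paper's methods. There were 54 miRNA genes in 31 long clusters, 34 tRNA genes in 3, 31 snoRNA genes in 13 and 0 rRNA genes. The tRNA genes lay in the early clusters cluster296 and cluster104 and the PSG cluster130, and none in a late cluster. Among the late clusters 7 held 9 miRNA genes, among them Mir7229 and Mir7230 in cluster343, Mir7233 in cluster389 and Mir7234 in cluster420. Their 15 annotated mature sequences were 21 to 27 nt long and had 15 different seeds, and 10 of them began with U. Whether reads remained from these genes was not tested.

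Of neighbouring long clusters, 7 pairs lay under 10 kb apart, and 1 of these pairs was late on both sides (cluster489 and cluster490). Late clusters with an early neighbour differed from it in ratio in the 3 pairs given here. Cluster44, a late cluster in Stox1 with Mir7215, had a log2 ratio of 7.55, and the early cluster45, 29619 bp away over Ccar1, had 0.06, unlike the early median of -1.26. Cluster67, a late cluster with pseudogenes only, had 7.30, and the early cluster68, 25501 bp away, had -0.87. Cluster509 in Topaz1 had 4.02 and the early cluster510, 35814 bp away, had -1.29. Of the clusters of low expression beside late ones, cluster66 had 0.74, cluster491 0.62, cluster149 0.42, cluster48 0.12 and cluster109 -0.30, each on 1 to 4 reads at P11. These pairs were picked after their values were seen.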
